A study of Mus musculus with 22 samples.

Results

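Leptin acts on the hypothalamus through its receptor Lepr, the kinase Jak2 and the transcription factor Stat3, and is restrained by inhibitors that Stat proteins induce and by tyrosine phosphatases. The members were 10 genes of this pathway: Lepr, Jak2, Stat3, Socs3, Cish, Socs2, Pim3, Sbno2, Ptpn1 and Ptpn2. They were found by the gene symbol in the platform's annotation, with dim probe sets kept, which gave 13 probe sets for 10 genes out of 20228 probe sets with exactly 1 gene symbol. Socs3, Socs2 and Ptpn2 had 2 probe sets each. Celastrol, a plant triterpenoid, is known as a leptin sensitizer, and the question here was whether the messenger RNA of these genes differed in its presence.

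All mice were lean C57BL/6J males of 8 weeks, kept on normal chow for 2 weeks, and total RNA of the hypothalamus was hybridised to Affymetrix arrays, 1 array for each replicate. Mice given celastrol in dimethyl sulfoxide (DMSO) by intraperitoneal injection were taken after 6 h (4 arrays), 1 day (3 arrays) or 4 days (3 arrays). Mice given DMSO alone, 25 µl per day, were taken at the same times (4 arrays each). The labels give a dose of 250 µg/kg beside the 6 h celastrol treatment. Beside the later ones they give only a celastrol volume of 100 µl, so no dose is stated here for 1 and 4 days. The 25 µl of DMSO per day is given for the celastrol groups as well. The mice were lean, so leptin resistance of obesity was not part of the comparison. The labels call the arrays biological replicates and do not say more about the animals behind them.

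Leptin binding to Lepr activates Jak2, which phosphorylates the receptor and Stat3. Phosphorylated Stat3 enters the nucleus and induces genes, among them Socs3, whose protein binds the receptor complex and stops the signal. The phosphatases encoded by Ptpn1 (PTP1B) and Ptpn2 (TCPTP) remove phosphate from Jak2 and Stat3, and loss of PTP1B in neurons makes mice more sensitive to leptin. Phosphorylation is not seen by an array. In bulk tissue, an array also cannot tell fewer cells of a type from less RNA per cell. Lepr is made as a long signalling form and as short forms, and its probe set is annotated with several Lepr transcripts, so these forms cannot be told apart here.

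STAT dimers bind a spaced palindrome, TTCNNNGAA, which is its own reverse complement, so that 1 search covers both strands. The promoters of RefSeq (GRCm38.p6), from 250 bases before to 50 bases after a transcript start, were searched for it, since several members are known STAT targets. Windows were at hand for 8 of the 10 genes, 11 windows in all. The motif lay in 4 of these windows, in Socs3, Cish and Sbno2, against 8.30% of all 32851 windows. The stretches that hold it are printed 5′ to 3′ on the strand of the gene, with the motif in capitals. A match is a run of letters, not a shown binding site.
Socs3, chr11:117969467-117969566, minus strand: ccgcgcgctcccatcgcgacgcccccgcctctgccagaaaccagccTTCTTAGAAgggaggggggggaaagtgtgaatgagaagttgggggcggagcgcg
Sbno2, one start, chr10:80102703-80102774, minus strand: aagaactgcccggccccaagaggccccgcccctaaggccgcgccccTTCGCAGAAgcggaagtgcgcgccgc
Sbno2, another start, chr10:80101188-80101257, minus strand: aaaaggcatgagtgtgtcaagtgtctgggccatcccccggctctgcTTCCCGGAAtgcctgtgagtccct
Cish, at its start, chr9:107296654-107296683, plus strand: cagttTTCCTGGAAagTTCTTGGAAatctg
In Sbno2 the motif begins 26 and 24 bases before the start in the windows shown, and a further Sbno2 window has none. In Socs3 it begins 154 bases before the start, and in Cish the first of a pair of motifs begins at the start itself. The searched windows of Lepr, Jak2, Stat3, Pim3 and Ptpn1 do not hold these letters, which says nothing of sites elsewhere.

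The values are log2 intensities made by the authors with RMA. Arrays had medians from 8.58 to 8.66. Each correlated with its own group at a mean r of 0.994 to 0.998. The number of arrays per group limits the precision. Of the 13 member probe sets, 7 lay above the median of their array in at least 3 arrays, the level filter that was used as an alternative. Sbno2 did so in 3 celastrol arrays and 0 DMSO arrays, so it passed that filter only through the group in which it was higher. The other 6 were dim: Lepr, Cish, both Socs3 probe sets, Ptpn2 (probe set 10459602) and Socs2 (probe set 10372069) lay below the array median in every array. The hypothalamus markers Hcrt, Pmch, Avp, Oxt, Trh, Crh, Ghrh, Sst, Sim1, Nkx2-1 and Otp averaged from 10.69 to 11.02 in an array, and 10 of the 11 passed the level filter. Pituitary markers varied most between arrays, with list means up to 7.85 at 6 h, 7.75 at 1 day and 9.63 at 4 days of celastrol, against up to 9.997, 8.73 and 7.81 with DMSO.

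Of the members, Sbno2 and Pim3 stood above DMSO most evenly: all 10 celastrol arrays exceeded the DMSO mean of their time for both genes. Sbno2 was 1.10-fold and Pim3 1.09-fold higher on the average of the 3 times. Neither passed at an adjusted p under 0.05 over all probe sets (limma, Benjamini-Hochberg), and no other member did at any time. Lepr, Socs3, Jak2, Stat3, Ptpn1, Cish and Socs2 differed by at most 1.19-fold at every time, the value of Lepr at 4 days. Ptpn2 had the largest change of any member, 1.21-fold at 4 days with probe set 10459602, but 1.05-fold with its other probe set. Members called numbered 0 of 13 at 6 h, against 0% of all 20228 probe sets. They numbered 0 of 13 at 1 day, against 0.00494%, and 0 of 13 at 4 days, against 0.00989%. On the average they numbered 0 of 13, against 0.0346%. The fit thus called almost nothing anywhere in the table, so these counts could hardly set the members apart. At an unadjusted p under 0.05 by limma, members numbered 1 of 13 at 6 h, against 3.93% of all probe sets, and 2 of 13 at 1 day, against 5.57%. They numbered 3 of 13 at 4 days, against 4.05%, and 2 of 13 on the average, against 3.55%. The same members recurred: Sbno2 alone at 6 h, Sbno2 and Pim3 at 1 day and on the average, and both with Ptpn2 probe set 10459602 at 4 days. The average uses the same arrays as the single times. These counts lay above the shares but were not tested as a set, and the members were chosen with earlier results of these data known.

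**Figure D1:**
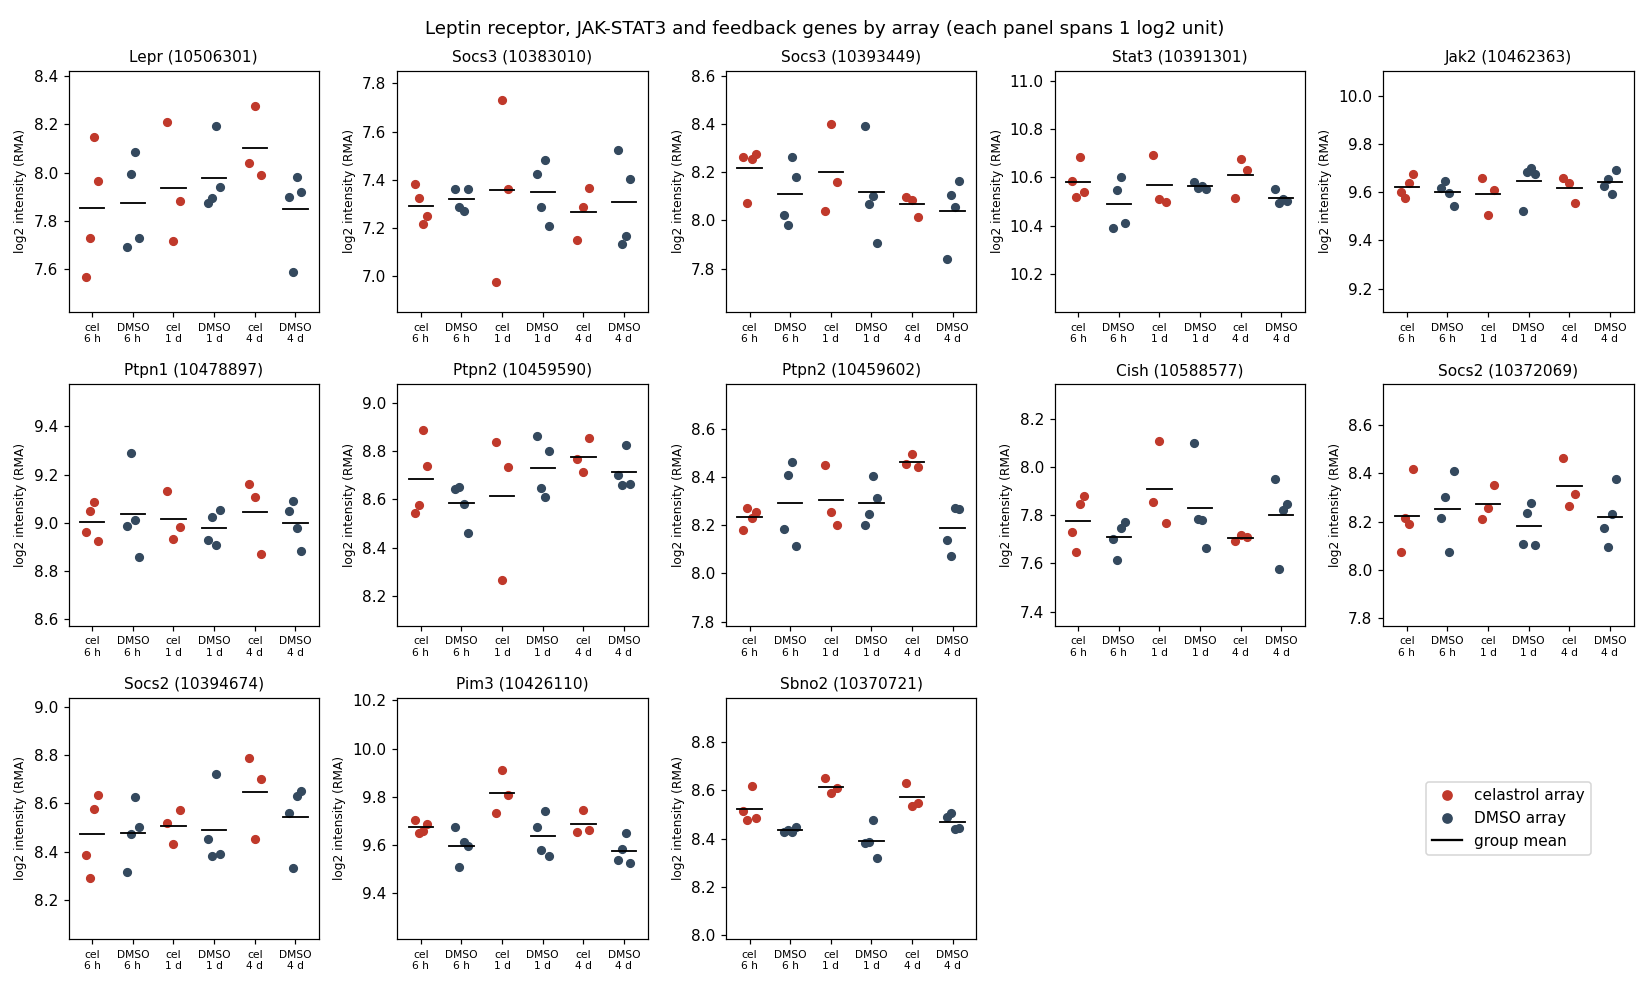
Log2 intensity (RMA) of each member probe set in all 22 arrays, with celastrol arrays in red, DMSO arrays in dark blue and group means as black lines, for 6 h, 1 day and 4 days. Each panel spans 1 log2 unit; only for Sbno2 do the celastrol points lie above the DMSO points at all 3 times.

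The median log2 change of the 13 probe sets was 0.02 at 6 h, 0.02 at 1 day, 0.09 at 4 days and 0.06 on the average, beside 0.00, -0.00, 0.01 and 0.00 over all probe sets tested. The number with a higher mean in celastrol was 7 at 6 h, 10 at 1 day and 10 at 4 days, and it was 11 on the average. Over all probe sets the share with a higher mean was 52.1%, 49.9%, 56% and 54.1% in the same order. Changes ranged from -0.06 to 0.11 at 6 h, from -0.12 to 0.22 at 1 day and from -0.09 to 0.28 at 4 days.

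**Figure D2:**
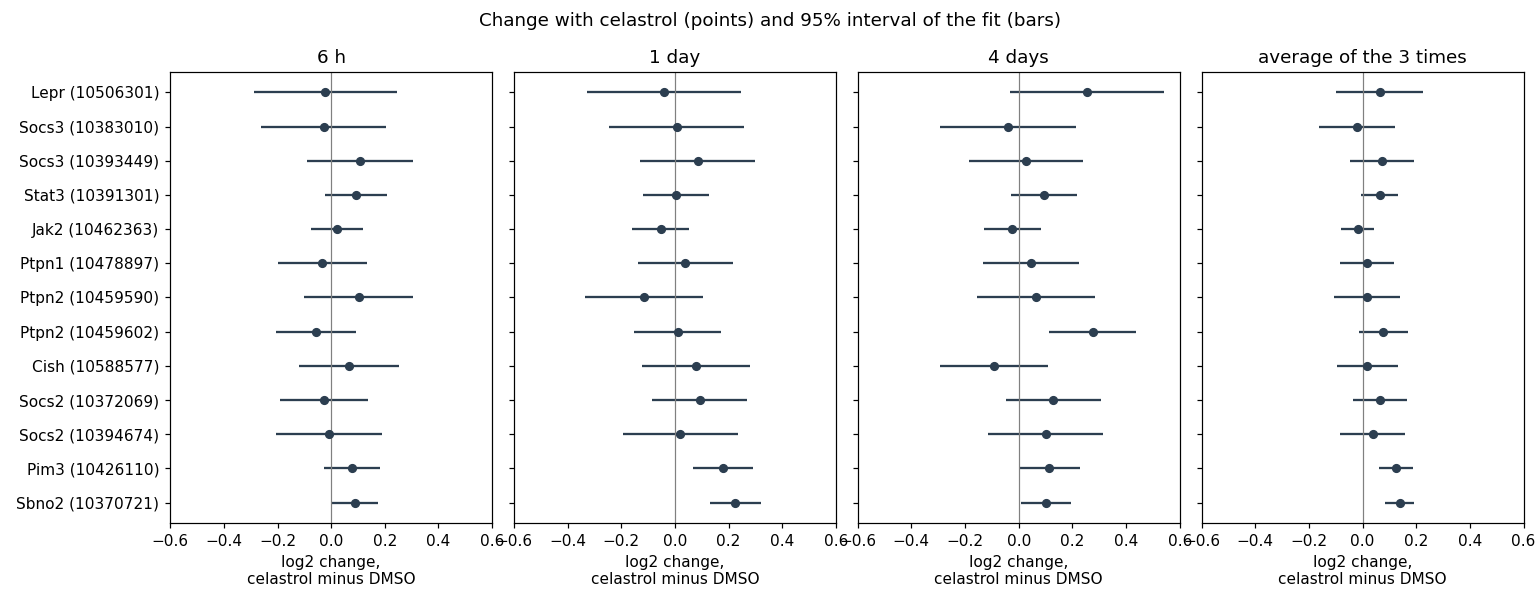
Log2 change, celastrol minus DMSO, of the 13 member probe sets (points) with the 95% interval of the limma fit (bars), at 6 h, 1 day and 4 days and for the average of the 3 times. Most intervals span 0, while those of Sbno2 lie above 0 in each panel.

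Lepr (probe set 10506301), the receptor, had log2 intensities of 7.57, 7.73, 8.15 and 7.97 after 6 h of celastrol, against 7.69, 7.99, 8.08 and 7.73 with DMSO. The celastrol arrays spanned more than the DMSO arrays on both sides. After 1 day it had 8.21, 7.71 and 7.88 with celastrol, against 7.87, 7.90, 8.19 and 7.94 with DMSO, and the groups overlapped fully. After 4 days it had 8.04, 8.28 and 7.99 with celastrol, against 7.90, 7.59, 7.98 and 7.92 with DMSO. There every celastrol array lay above every DMSO array, as for 4.06% of all probe sets at that time. The lowest celastrol array was only just above the highest DMSO array, and it lay below that array once array medians were subtracted. The log2 change at 4 days was 0.25 (SE 0.14, 95% interval -0.03 to 0.54, adjusted p = 1.00 by limma), and the exact two-sided permutation p was 0.0571, where 0.0286 is the smallest that 3 against 4 arrays allow. At 6 h the change was -0.02 (SE 0.13) and at 1 day -0.04 (SE 0.14). The celastrol group at 4 days (8.10 ± 0.15, SD) had the highest mean of the 6 groups and DMSO at 4 days (7.85 ± 0.18, SD) the lowest, but neighbouring means in that order lay within the spread of their arrays. The choroid plexus, which carries short Lepr forms, can come with a hypothalamic dissection. Its 5 markers (Ttr, Kl, Folr1, Kcnj13 and Clic6) averaged from 7.67 to 8.11 in the 4-day celastrol arrays, against 7.79 to 8.06 with DMSO. At 4 days 2 of the 5 had a higher mean with celastrol, Kcnj13 (log2 change 0.20) and Kl (0.07), and 3 a lower one, Ttr (-0.30), Folr1 (-0.10) and Clic6 (-0.03), with 0 called. Ttr, Folr1 and Clic6 lay below the array median in every array. All 4 tanycyte markers (Rax, Crym, Col23a1 and Dio2) had a higher mean with celastrol at 4 days (median log2 change 0.10, 0 called). Their list mean lay between 8.17 and 8.37, against 8.05 to 8.28 with DMSO. Of 5 endothelial markers, 3 were higher and 2 lower at 4 days (median 0.04, 0 called). The part of any of these cells in the Lepr values was not tested.

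Jak2 (probe set 10462363), the kinase bound to the receptor, was among the least variable members. It had log2 intensities of 9.60, 9.58, 9.64 and 9.67 after 6 h of celastrol, against 9.62, 9.65, 9.60 and 9.54 with DMSO. The groups overlapped at each time. Its log2 changes were 0.02 (SE 0.05) at 6 h, -0.05 (SE 0.05) at 1 day and -0.02 (SE 0.05) at 4 days. The 95% interval of the average change ran from -0.08 to 0.04.

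Stat3 (probe set 10391301), the transcription factor itself and a target of its own signal, had log2 intensities of 10.58, 10.52, 10.68 and 10.54 after 6 h of celastrol, against 10.39, 10.55, 10.60 and 10.41 with DMSO. After 1 day it had 10.69, 10.51 and 10.50 with celastrol, against 10.58, 10.56, 10.57 and 10.55 with DMSO. After 4 days it had 10.52, 10.68 and 10.63 with celastrol, against 10.55, 10.50, 10.51 and 10.50 with DMSO. At 4 days 2 of the 3 celastrol arrays lay above all DMSO arrays. At 1 day 1 lay above all DMSO arrays and the other 2 lay below all of them. The log2 change was 0.09 (SE 0.06) at 6 h, 0.00 (SE 0.06) at 1 day and 0.09 (SE 0.06) at 4 days. On the average it was 0.06 (95% interval -0.01 to 0.13, adjusted p = 1.00), with 8 of 10 celastrol arrays above the DMSO mean and an exact permutation p of 0.0555.

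Socs3, the feedback inhibitor used as a readout of leptin action, did not separate the groups with either probe set. Its probe set 10393449, annotated with the RefSeq transcript, had log2 intensities of 8.26, 8.07, 8.25 and 8.28 after 6 h of celastrol, against 8.02, 7.98, 8.26 and 8.18 with DMSO. After 1 day it had 8.04, 8.40 and 8.16 with celastrol, against 8.39, 8.07, 8.10 and 7.91 with DMSO. After 4 days it had 8.10, 8.09 and 8.02 with celastrol, against 7.84, 8.11, 8.05 and 8.16 with DMSO. The groups overlapped at all 3 times. The log2 changes were 0.11 (SE 0.09), 0.08 (SE 0.10) and 0.03 (SE 0.10) at 6 h, 1 day and 4 days, and the average was 0.07 (95% interval -0.05 to 0.19). Both Socs3 probe sets were dim in every array, which limits what they can show. The other probe set, 10383010, was dimmer and had an average change of -0.02 (95% interval -0.16 to 0.12). Over the 22 arrays the deviations of the 2 Socs3 probe sets from the DMSO mean of their time correlated at r = 0.28, a description only.

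Cish and Socs2 encode further members of the SOCS family, best known as targets of STAT5 downstream of growth hormone. Cish (probe set 10588577) had log2 intensities of 7.85, 8.11 and 7.77 after 1 day of celastrol, against 8.10, 7.78, 7.78 and 7.66 with DMSO. After 4 days it had 7.69, 7.72 and 7.71 with celastrol, against 7.95, 7.58, 7.82 and 7.85 with DMSO. The celastrol arrays at 4 days were close together and lay inside the DMSO range. The log2 changes of Cish were 0.07 (SE 0.09), 0.08 (SE 0.10) and -0.09 (SE 0.10) at 6 h, 1 day and 4 days. Socs2 had average changes of 0.06 (SE 0.05) with probe set 10372069 and 0.04 (SE 0.06) with probe set 10394674. Both Socs2 probe sets had their largest change at 4 days, at 0.13 (SE 0.08) and 0.10 (SE 0.10), and the groups overlapped.

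Pim3 (probe set 10426110), a serine/threonine kinase gene that STAT3 can induce, had log2 intensities of 9.71, 9.65, 9.66 and 9.69 after 6 h of celastrol, against 9.67, 9.51, 9.61 and 9.60 with DMSO. After 1 day it had 9.73, 9.91 and 9.81 with celastrol, against 9.68, 9.58, 9.74 and 9.56 with DMSO. After 4 days it had 9.65, 9.75 and 9.66 with celastrol, against 9.54, 9.58, 9.65 and 9.52 with DMSO. At 4 days every celastrol array lay above every DMSO array, though the lowest and the highest of these both round to 9.65. With array medians subtracted, celastrol replicate 3 lay below DMSO replicate 3 at that time. At 6 h and at 1 day 1 DMSO array lay within the celastrol range. The log2 changes were 0.08 (SE 0.05), 0.18 (SE 0.05) and 0.11 (SE 0.05). The average was 0.12 (SE 0.03, 95% interval 0.06 to 0.19, adjusted p = 0.411 by limma), and its exact two-sided permutation p was 3.38e-04, unadjusted. Pim3 ranked 30 among the 20228 probe sets by its p on the average.

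Sbno2 (probe set 10370721), a transcriptional co-regulator induced through STAT3 in the anti-inflammatory response to interleukin-10, was the member with the clearest separation. It had log2 intensities of 8.51, 8.48, 8.62 and 8.49 after 6 h of celastrol, against 8.43, 8.44, 8.43 and 8.45 with DMSO. After 1 day it had 8.65, 8.59 and 8.61 with celastrol, against 8.38, 8.38, 8.48 and 8.32 with DMSO. After 4 days it had 8.63, 8.54 and 8.55 with celastrol, against 8.49, 8.51, 8.44 and 8.45 with DMSO. The groups did not overlap at any of the 3 times in the deposited values. At 4 days the gap was small beside differences in array level. DMSO replicate 2 had 8.51 in an array of median 8.58, and celastrol replicate 3 had 8.55 in an array of median 8.66. In that celastrol array, 64.4% of all probe sets lay above the DMSO mean. With array medians subtracted, celastrol replicate 3 lay below DMSO replicate 2, so the groups overlapped at 4 days. At 6 h and 1 day they stayed apart. In the deposited values, only 2 of 20228 probe sets, or 0.00989%, had every celastrol array above every DMSO array at all 3 times. They were Sbno2 and the Slfn5 probe set 10379615, the second named after its values were seen. No probe set had every celastrol array below at all 3 times. With array medians subtracted, Sbno2 was no longer such a probe set, and the whole array was not recounted.

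The log2 change of Sbno2 was 0.09 (SE 0.04) at 6 h, 0.22 (SE 0.05, 95% interval 0.13 to 0.32) at 1 day and 0.10 (SE 0.05) at 4 days. The adjusted p by limma was 0.998, 0.209 and 1.00. On the average the change was 0.14 (SE 0.03, 95% interval 0.08 to 0.19) with an adjusted p of 0.0580, and Sbno2 ranked 9 of 20228 by p. The exact permutation p was 0.0286 at each time and 1.17e-05 on the average, each the smallest that these arrays can give and unadjusted. The average passed in 2 of 31 alternatives, with array weights (adjusted p = 0.0331) and without DMSO 1 day replicate 3 (0.0388). That array had the highest Sbno2 of its group, so leaving it out could only widen the difference. The method for the weights was chosen after seeing the data and gave celastrol 1 day replicate 3 a weight of 5.30. Over the 31 alternatives the adjusted p lay between 0.0331 and 0.232. The level filter is left out of that range, since Sbno2 passed it only through celastrol arrays. The celastrol groups held the 3 highest means, 8.62 ± 0.03 at 1 day, 8.57 ± 0.05 at 4 days and 8.52 ± 0.06 at 6 h (SD). The DMSO means followed, at 8.47 ± 0.03 at 4 days, 8.44 ± 0.01 at 6 h and 8.39 ± 0.07 at 1 day. Neighbouring means in this order differed by no more than the larger SD of the pair, except DMSO at 4 days and at 6 h, which lay slightly further apart. Microglia and blood markers are of interest beside a gene of the inflammatory response. The 5 microglia markers had a median log2 change of 0.01 on the average and the 4 blood cell markers 0.09, with 0 called in each. By time, 2 microglia markers were higher and 3 lower at 1 day (median -0.02), and 4 were higher and 1 lower at 4 days (median 0.09). The microglia list mean at 4 days lay between 8.85 and 8.89 with celastrol, against 8.70 to 8.87 with DMSO. At 1 day, 3 of the 4 blood cell markers had a higher mean with celastrol, Alas2 (log2 change 0.16), S100a8 (0.16) and Ptprc (0.06), and S100a9 a lower one (-0.04). Their list mean lay between 7.24 and 7.31 in the celastrol arrays of 1 day, against 7.09 to 7.26 with DMSO. At 4 days 3 of the 4 were again higher, Ptprc (0.29), S100a9 (0.09) and S100a8 (0.08), and Alas2 was lower (-0.19). The list mean at 4 days lay between 7.10 and 7.26 with celastrol, against 7.05 to 7.16 with DMSO. None of the 4 passed the level filter. The part of such cells in the Sbno2 values was not tested.

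Ptpn1 (probe set 10478897), encoding PTP1B, had log2 intensities of 8.96, 9.05, 9.09 and 8.92 after 6 h of celastrol, against 8.99, 9.29, 9.01 and 8.86 with DMSO. The groups overlapped at each time, and the changes were -0.03 (SE 0.08), 0.04 (SE 0.09) and 0.05 (SE 0.09). The 95% interval of its average change ran from -0.08 to 0.12. Ptpn2, encoding TCPTP, gave different values with its 2 probe sets. Probe set 10459602 had 8.45, 8.50 and 8.44 after 4 days of celastrol, against 8.14, 8.07, 8.27 and 8.27 with DMSO. The groups did not overlap there, the celastrol arrays being higher, with a log2 change of 0.28 (SE 0.08, 95% interval 0.11 to 0.44, adjusted p = 0.554 by limma) and an exact permutation p of 0.0286, the smallest possible. At 6 h the same probe set had a change of -0.06 (SE 0.07). Probe set 10459590, the brighter, had 8.77, 8.71 and 8.85 after 4 days of celastrol, against 8.70, 8.66, 8.83 and 8.67 with DMSO. The groups overlapped and the change was 0.06 (SE 0.11), so a difference for Ptpn2 as a gene rests on 1 dim probe set.

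In all, members lying wholly above DMSO numbered 1 at 6 h, against 1.48% of all probe sets, and 1 at 1 day, against 2.12%. They numbered 4 at 4 days, against 4.06%, namely Lepr, Ptpn2 (probe set 10459602), Pim3 and Sbno2. These counts are of the deposited values, without centring of the arrays. Among the 4-day arrays, celastrol replicate 3 had a median of 8.66, against 8.58 to 8.62 with DMSO. With array medians subtracted, that array lay below DMSO replicate 3 for Lepr and Pim3, and below DMSO replicate 2 for Sbno2. Of the 4, only Ptpn2 probe set 10459602 then stayed wholly above DMSO. The share over all probe sets was not counted that way. Members wholly below numbered 0 at each time, against 1.17%, 3.19% and 2.02%. The celastrol effect was also compared between times, within the same fit. Members called numbered 0 of 13 for 1 day minus 6 h, for 4 days minus 6 h and for 4 days minus 1 day, against 0% of all probe sets in each. For Sbno2 the effect at 1 day exceeded that at 6 h by 0.14 (SE 0.06, adjusted p = 0.752), and for Lepr the effect at 4 days exceeded that at 1 day by 0.30 (SE 0.20, adjusted p = 0.902). A peak at 1 day for Sbno2 and Pim3 is therefore seen in the means and did not pass a test.

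Likeness to other genes was measured as the Pearson correlation over the 22 arrays, after the DMSO mean of the time was subtracted, among 10608 or 10609 probe sets that passed the level filter. These are descriptions, since the arrays share treatment and time. Sbno2 was most like Osmr, the oncostatin M receptor subunit (r = 0.82), which itself passed that filter in 3 celastrol arrays and 0 DMSO arrays. Ptgs2, the inducible cyclooxygenase (r = 0.76), and Ier3, an early NF-kB target (r = 0.72), followed. By ranks (Spearman) these correlations were lower, at 0.70 for Osmr, 0.63 for Ptgs2 and 0.61 for Ier3. Lepr was most like Iqgap1, a scaffold protein (r = 0.84), Slc38a6 (r = 0.82) and Txnip, a glucose-responsive arrestin (r = 0.81). Stat3 was most like Orc5 (r = 0.89), Mpv17 (r = 0.87) and Tpd52 (r = 0.87). The Socs3 probe set 10393449 was most like Prpf19 (r = 0.73), Psmb5 (r = 0.72) and Ddx5 (r = 0.71), and probe set 10383010 was most like Col1a1 (r = 0.89), Klhl9 (r = 0.83) and Mrm1 (r = 0.83). Among the members, Lepr went with Ptpn2 probe set 10459602 (r = 0.78) and Stat3 (r = 0.64), and Pim3 with Sbno2 (r = 0.68), while Lepr and Sbno2 had r = 0.15.

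**Figure D3:**
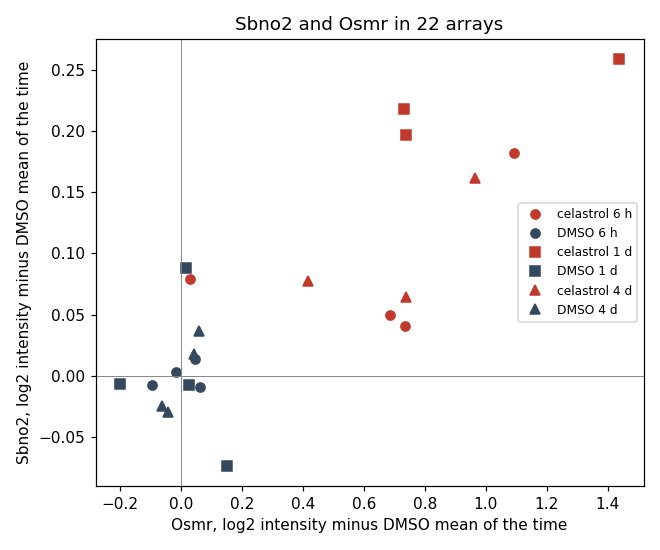
Sbno2 against Osmr in 22 arrays, each as log2 intensity minus the mean of the DMSO arrays of the same time, with celastrol in red and DMSO in dark blue and the time given by the marker. Of the 10 celastrol arrays, 9 lie to the right of all DMSO arrays, and 1 of 6 h lies among them, with Sbno2 0.08 and Osmr 0.03 above the DMSO mean.

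In that array, celastrol 6 h replicate 1, Pim3 was 0.11 above the DMSO mean. Osmr deviations in the other 9 celastrol arrays lay between 0.42 and 1.44. The array in which Osmr stood highest, celastrol 1 day replicate 1, was also the one with the highest Sbno2 (0.26 above), while Pim3 was highest in replicate 2 of that group (0.27 above).

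The other genes of the pathway were read from lists. Of 14 cytokine and receptor genes of the leptin and interleukin-6 family, 11 were on the array with 1 symbol, and on the average 8 were higher, 3 lower, 1 called higher and 0 called lower (median log2 change 0.04, beside 0.00 over all probe sets). The call was Osmr (probe set 10427471), which averaged 8.37 at 6 h, 8.60 at 1 day and 8.56 at 4 days of celastrol, against 7.74, 7.63 and 7.85 with DMSO, an average log2 change of 0.77 (SE 0.10, adjusted p = 0.00190). Leptin itself, Lep, made by fat cells, had a change of -0.02 and lay below the array median in every array. Of the other JAK and STAT genes, 7 of 9 were found, with 4 higher, 3 lower and 0 called (median 0.01). The smallest p values were those of Stat6, the interleukin-4 factor (0.08, SE 0.04), and Jak1, a kinase of the interleukin-6 receptors (0.05, SE 0.03), both with an adjusted p of 1.00. Of the other SOCS, PIAS, phosphatase and adaptor genes, 18 of 19 were found with 19 probe sets, of which 13 were higher, 6 lower and 0 called (median 0.02). Irs2, an insulin receptor substrate (0.06, SE 0.03), and the phosphatase gene Ptpn6 (0.07, SE 0.05) had the smallest p values.

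Of 16 other genes induced through STAT3, 15 were higher on the average, 1 was lower and 0 were called (median 0.08, with 54.1% of all probe sets higher). Only 7 of the 16 passed the level filter. At an unadjusted p under 0.05 by limma they numbered 7, against 3.55% of all probe sets. The list was not tested as a set and was chosen with earlier results of these data known. The smallest p values belonged to Tnfrsf1a, a tumour necrosis factor receptor (0.14, SE 0.05, adjusted p = 0.952), and Bcl3, an atypical inhibitor of NF-kB (0.18, SE 0.06, adjusted p = 0.952). Bcl3 had a change of 0.52 at 1 day (SE 0.10, adjusted p = 0.209) but 0.07 at 6 h and -0.06 at 4 days. The 1 lower gene was the immediate early gene Fos (-0.05). The counts at single times were 12 of 16 higher at 6 h, 12 at 1 day and 13 at 4 days, with 0 called at each. The list includes the astrocyte gene Gfap, and 5 other astrocyte markers averaged from 11.23 to 11.39 in celastrol arrays at 6 h, against 11.16 to 11.21 with DMSO. At 1 day the astrocyte markers averaged from 11.29 to 11.31 with celastrol, against 11.24 to 11.34 with DMSO. At 4 days they averaged from 11.17 to 11.22 with celastrol, against 11.12 to 11.27 with DMSO. On the average of the 3 times all 5 had a higher mean with celastrol (median log2 change 0.025, 0 called). Their part in the list's values was not tested.

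**Figure D4:**
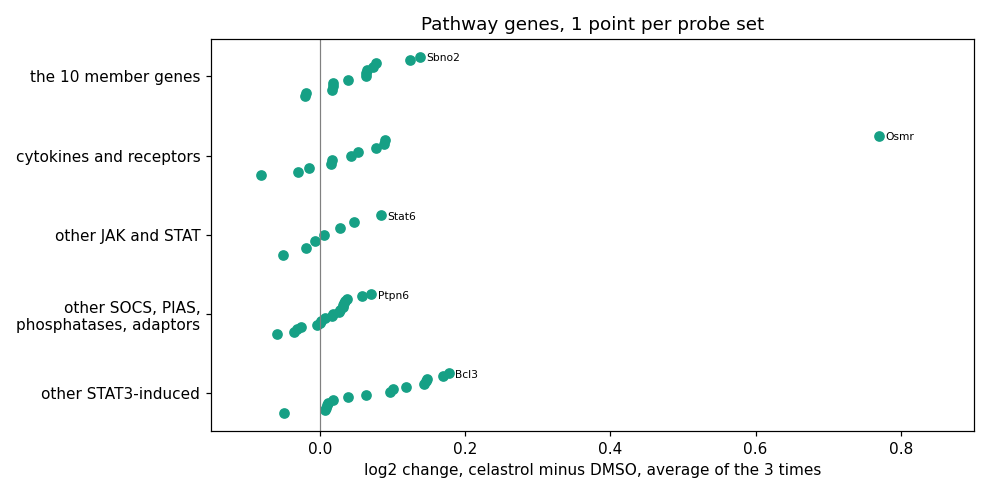
Log2 change, celastrol minus DMSO, on the average of the 3 times, with 1 point per probe set for the 10 member genes and 4 lists of related pathway genes. The highest point of each list is named; Osmr at 0.77 stands apart from all others, which lie at 0.18 or below.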

How the data were processed

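Per the labels, total RNA of the hypothalamus was extracted with Trizol, cleaned up with a kit, labelled with biotin and measured on Affymetrix arrays. The authors deposited log2 intensities, made with RMA per the submitters' processing notes. RMA subtracts background, makes the arrays' distributions equal and combines the probes of a set, which can shrink changes of dim probe sets. Its version was not stated. Of 23492 probe sets, 20228 had 1 gene symbol, 1399 several and 1865 none in the platform annotation.

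The 6 groups entered 1 linear model over all 22 arrays and 20228 probe sets, in limma 3.58.1 in R 4.3.3 (lmFit, eBayes, 16 residual degrees of freedom, two-sided). Calls were made at a Benjamini-Hochberg adjusted p under 0.05, and intervals are at 95%. Exact permutations exchanged labels within a time, in 52 tests of which 6 had p under 0.05. No level filter was used, since dim members are kept by the rule that chose them. P-values measure the spread between these arrays. The members and lists were chosen with earlier results of these data known. All 10 members were named, of each list the called genes (at most 4) or the 2 with the smallest p on the average, and for Lepr, Socs3, Stat3 and Sbno2 the 3 genes most like them, predicted genes left out. Alternatives changed the filter, the probe sets fitted, normalization, centring, variance prior, array weights, arrays fitted and blocking. Those without the 2 least typical arrays (DMSO 1 day replicate 1 and celastrol 1 day replicate 2, whose mean correlation within their group was lowest) were chosen after seeing the data. The scripts were tested on simulated data. Python 3.11.15 and matplotlib 3.10.9 made the figures.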

Additional observations from a re-analysis of the deposited data

Results flagged for a closer look

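Dixon's test for 1 array standing apart was applied to 52 groups of 4 arrays and singled out 2, where chance gives about 5% of groups. The first is the Socs3 probe set 10393449 in celastrol 6 h replicate 2, at a log2 intensity of 8.07 beside 8.25 to 8.28 in the other arrays of its group. The second is Jak2 in DMSO 1 day replicate 1, at 9.52 beside 9.68 to 9.70 in the others.

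The Ptpn2 probe set 10459602 had all 3 celastrol arrays above the DMSO mean at 4 days and all 4 below it at 6 h. The effect at 4 days minus that at 6 h was 0.33 (SE 0.11), and limma's test of this difference did not pass over all probe sets (adjusted p = 0.999).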

How the results depend on the processing

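Sbno2 kept its direction on the average in 31 alternatives other than the level filter (0.13 to 0.15, adjusted p 0.0331 to 0.232) and passed in 2. At 1 day it passed in 1. Pim3 kept its direction in all 32 and passed in none (0.11 to 0.14, adjusted p 0.145 to 0.886). Over single members, 1928 values kept direction and side of the threshold, 71 turned sign and 4 newly passed. The cause was not tested except where fewer probe sets or arrays were used. With the level filter, calls numbered 0 at 1 day and 0 at 4 days, and 1 member, Sbno2, was called on the average (adjusted p = 0.0191). That call is no support, since Sbno2 enters the filtered set through 3 celastrol arrays and 0 DMSO arrays. With quantile normalization repeated, calls numbered 3 at 1 day and 1 at 4 days. Socs3 probe set 10383010 then had 0.0033 at 6 h and -0.0079 at 1 day, Socs3 probe set 10393449 -0.0042 at 4 days, and Sbno2 -0.0098 for 4 days minus 6 h. With median centring, Lepr had 0.0011 for 1 day minus 6 h. With an intensity trend in the prior, calls at 4 days numbered 6, and with only the groups compared 0.

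Array weights used limma's gene-by-gene estimate, because the default estimate did not converge. This choice was made after seeing the data, and 1 array (celastrol 1 day replicate 3) still had a weight of 5.30. Calls numbered 19 at 1 day, 12 at 4 days and 16 on the average, with 1 member, Sbno2, at 1 day (adjusted p = 0.0187) and 1, again Sbno2, on the average. Signs turned for Lepr (0.025) and Socs2 probe sets 10372069 (0.0033) and 10394674 (0.016) at 6 h. They turned for Stat3 (-0.041) and Ptpn2 probe sets 10459590 (0.015) and 10459602 (-0.085) at 1 day, for Cish (-0.0027) on the average, and for Ptpn2 probe set 10459602 in 1 day minus 6 h (-0.066).

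Replicate numbers did not pair the arrays: same-numbered arrays correlated from -0.44 to 0.39, above 0.1 in 2 of 10 pairs. With the replicate number as a block, calls numbered 3 at 1 day and 1 at 4 days, Stat3 had -0.0075 at 1 day, and Sbno2 had 0.13 on the average (adjusted p = 0.168). Without the 2 least typical arrays, calls numbered 0 at 1 day and 4 at 4 days. Lepr then had 0.035, Socs3 probe set 10383010 -0.16 and Ptpn2 probe set 10459590 0.10 at 1 day, and Lepr 0.057 for 1 day minus 6 h.

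Leaving out each array in turn gave 0 to 2 calls at 1 day, 1 to 5 at 4 days and 3 to 10 on the average, with 0 to 1 member, Sbno2, without DMSO 1 day replicate 3. At 6 h, ranges that crossed 0 were -0.12 to 0.073 for Lepr, -0.092 to 0.051 for Ptpn1, and -0.091 to 0.027 and -0.062 to 0.054 for Socs2 probe sets 10372069 and 10394674. At 1 day they were -0.18 to 0.069 for Lepr, -0.059 to 0.039 for Stat3, -0.019 to 0.080 for Ptpn1, -0.021 to 0.17 for Cish and -0.015 to 0.099 for Socs2 probe set 10394674. For Socs3 probe sets 10383010 and 10393449 they were -0.18 to 0.20 and -0.016 to 0.18, and for Ptpn2 probe sets 10459590 and 10459602 -0.23 to 0.056 and -0.062 to 0.061. At 4 days they were -0.097 to 0.032 and -0.041 to 0.067 for the same Socs3 probe sets, -0.045 to 0.0073 for Jak2 and -0.011 to 0.13 for Ptpn1. On the average they were -0.082 to 0.043 for Socs3 probe set 10383010, -0.0023 to 0.047 for Ptpn1, -0.021 to 0.075 for Ptpn2 probe set 10459590 and -0.016 to 0.047 for Cish. Between times they were -0.16 to 0.091 for Lepr and -0.0046 to 0.13 for Ptpn2 probe set 10459602 (1 day minus 6 h), and -0.017 to 0.045 for Sbno2 (4 days minus 6 h).

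Precision is limited by 3 or 4 arrays a group and by low signal: 6 of the 13 member probe sets lay below the array median in every array.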
